A study of Mus musculus with 8 samples.

Results

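Macrophages are the most abundant immune cells of lean fat, and 10 genes that mark those resident in tissue were followed here in epididymal white fat, the visceral fat pad along the epididymis of male mice. The genes were chosen by name: Cd68, Csf1r, Mrc1, Cd163, C1qa, C1qb, C1qc, Lyve1, Retnla and Timd4. All 10 were found among the 37417 genes of the deposited table, and all 10 passed the filter on low counts with 14800 genes in all. The study compared 4 mice labelled KO, which carried a floxed Atg3 gene and a tamoxifen-inducible Cre recombinase (Adiponectin-Cre ERT2-Atg3 flox/flox), with 4 mice labelled WT. All mice were C57Bl/6 males on chow, and tamoxifen was given to both genotypes. The labels give no age, and those of the WT mice name no allele. Atg3 encodes an enzyme of autophagosome formation. The adiponectin promoter is active in adipocytes, so the design places the deletion in fat cells and not in the macrophages that lie between them.

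Resident macrophages of fat depend on the growth factor receptor CSF1R, whose ligands are CSF1 and IL-34, and they take up debris, dying cells and iron. Those along blood vessels carry the scavenger receptors MRC1 and CD163 and the hyaluronan receptor LYVE1, and TIM-4 marks a long-lived subset. The C1q chains, secreted mainly by macrophages in many tissues, start the classical complement pathway. Retnla is induced in mouse macrophages by IL-4 and IL-13. In a whole-tissue library, fewer cells of a type and less RNA per cell cannot be told apart.

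Before the results, libraries that stand apart are named. Total counts were 12952190 to 21688464 in KO and 10986375 to 17128811 in WT libraries. Atg3 had 27.8 to 32.2 CPM (counts scaled to library size) in KO and 44.5 to 53.6 CPM in WT libraries. Markers of duct epithelium, 16 genes with Epcam, Krt8 and Foxj1 among them, summed to 49.3, 581, 589 and 55.0 CPM in KO libraries 1 to 4, against 14.7 to 32.9 CPM in WT libraries, where Elf3 had no read. The prostate gene Pbsn had 67.9 CPM in KO library 1 and at most 1.29 CPM elsewhere. WT library 1 had the highest sum of 7 T and B cell genes, 254 CPM, against 67.7 to 141 CPM in KO libraries and up to 102 CPM in the other WT libraries. Mitochondrial genes took 5.03 to 6.08% of counts in KO and 3.05 to 4.93% in WT libraries. Adipoq, which defines adipocytes, had 2155 to 2372 CPM in KO and 2452.5 to 3995 CPM in WT libraries. The part of these differences in the results below was not tested, except where values without a library are given. The 10 macrophage genes themselves summed to 1063 CPM in KO library 2, the lowest sum of the 8 libraries. Their sum reached 1492 CPM in KO libraries and was 1169 to 1505 CPM in WT libraries.

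None of the 10 macrophage genes differed between the genotypes past the test's threshold. With edgeR's quasi-likelihood test 0 of the 10 had a Benjamini-Hochberg adjusted p under 0.05, over all genes tested, where 0.405% of genes tested did. DESeq2, which called 5.47% of genes tested, and limma-voom, which called 0.304%, also called 0 of them. At an unadjusted p under 0.05 there was 1, Cd163, where 16.2% of genes tested reached that level. In 0 of the 10 did KO and WT libraries separate without overlap, against 8.86% of genes tested (4.32% higher and 4.54% lower in KO fat). The log2 fold change (log2FC, KO against WT) was above 0 for 4 and below 0 for 6, with a median of -0.13 beside -0.01 over all genes tested. Over all genes tested, 47.6% had a log2FC above 0 and 52.4% below 0. These shares, and the 16.2% at an unadjusted p under 0.05, are the background for the counts of other lists given below. Levels below are in CPM with the SD over n = 4 libraries per genotype, and intervals of fold changes are 95% intervals of the edgeR fit.

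**Figure D1:**
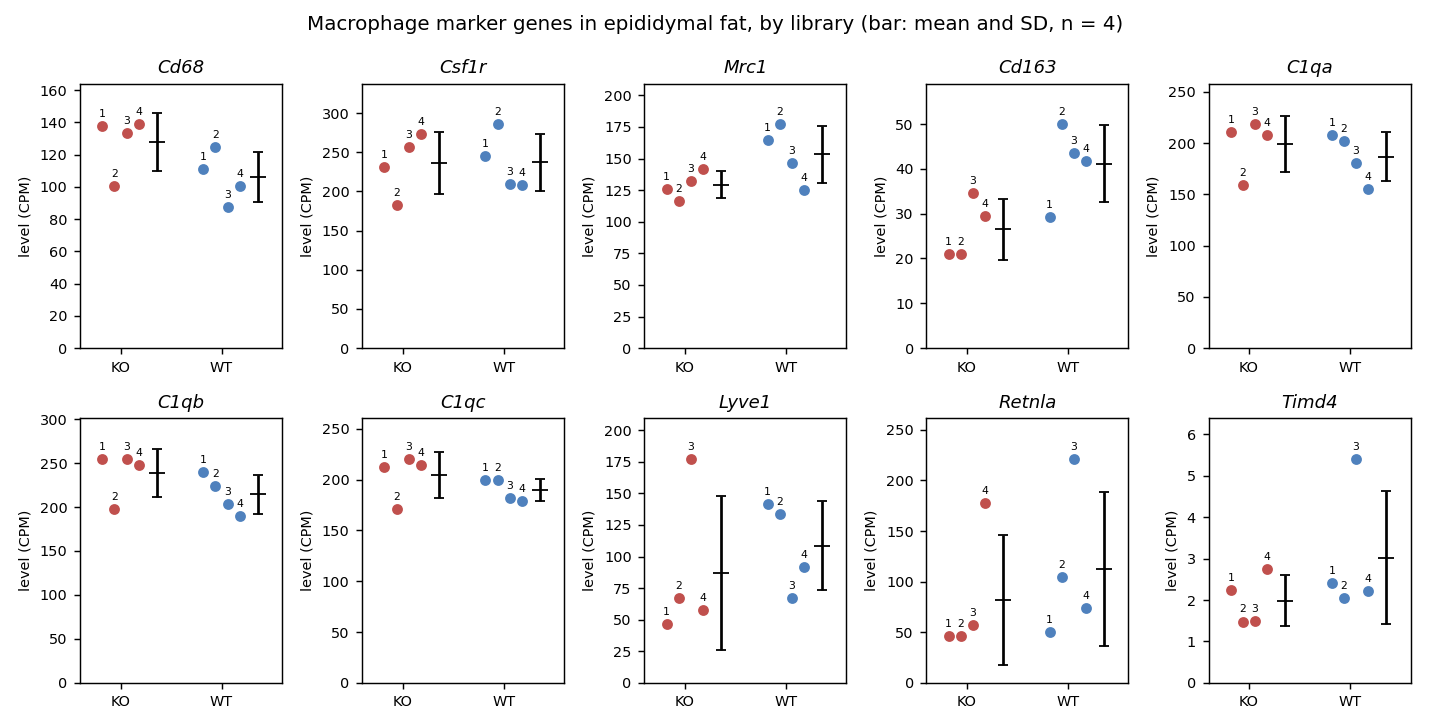
Level of each of the 10 macrophage marker genes in CPM (y axis, from 0) in the KO and WT libraries (x axis); points are single libraries with their replicate number, and bars give mean and SD of 4 libraries. The KO and WT points overlap in every panel, and the spread is widest for Lyve1 (46.4 to 177 CPM in KO libraries) and Retnla (46.1 to 178 CPM in KO libraries).

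Compared per exonic length of the gene, C1qb had the highest mean of the set in both genotypes and Timd4 the lowest. On the deposited FPKM scale (reads scaled by gene length and library size), C1qb averaged 221 ± 27.5 FPKM in KO and 197 ± 28.7 FPKM in WT fat (SD, n = 4 each). C1qa followed with 192 ± 28.5 and 179 ± 29.0 FPKM in KO and WT fat, and C1qc averaged 106 FPKM in KO (88.7 to 119.7) and 97.9 FPKM in WT fat (88.2 to 109). Retnla averaged 135 ± 100.4 FPKM in KO and 183 ± 115 FPKM in WT fat, a spread that covers the levels of C1qa, C1qb, C1qc and Cd68. Cd68 had 102 ± 14.6 FPKM in KO and 84.1 ± 15.0 FPKM in WT fat, below C1qc in all 8 libraries, although their ranges overlapped. Csf1r averaged 45.2 FPKM in both genotypes (SD 7.51 in KO, 8.07 in WT) and Lyve1 34.0 ± 25.1 and 41.8 ± 15.2 FPKM in KO and WT fat, so their levels overlapped. Mrc1 had 21.8 ± 1.68 FPKM in KO and 25.7 ± 4.44 FPKM in WT fat, below Csf1r in all 8 libraries. Cd163 had 5.94 ± 1.62 and 9.06 ± 1.70 FPKM in KO and WT fat, and Timd4 0.912 ± 0.252 and 1.36 ± 0.653 FPKM. Neither of these last genes overlapped its neighbours in this order in any library.

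Csf1r encodes the receptor that macrophages need for survival and is a general marker of mononuclear phagocytes. It lies on the plus strand of chromosome 18 (61105572 to 61132149, mm10). KO libraries 1 to 4 held 231, 183, 257 and 273 CPM, and WT libraries 1 to 4 held 245, 286, 209.6 and 208 CPM. The ranges of the genotypes overlapped, with the lowest level in KO library 2 and the highest in WT library 2. The log2FC was -0.01 (SE 0.149, edgeR adjusted p = 0.986), and its interval ran from 0.787-fold to 1.26-fold. Its sign turned under several settings, as listed at the end. The last 871 bp of the gene model overlap Hmgxb3 on the opposite strand, and whether reads were counted by strand is unknown, which leaves a part of its reads uncertain.

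The ligands of CSF1R were present in both genotypes, and neither differed past the threshold. Csf1 had 93.5 to 105 CPM in KO and 89.3 to 112 CPM in WT libraries (log2FC -0.03, edgeR adjusted p = 0.897). Il34 had 20.4 to 40.5 CPM in KO and 24.9 to 29.7 CPM in WT libraries (log2FC 0.22, adjusted p = 0.616). Of 11 tested genes of the CSF1 receptor pathway 0 passed over all genes, and the median log2FC was 0.13. With edgeR 4 of them had an unadjusted p under 0.05, beside 16.2% of all genes tested. Those with the lowest p were Csf2ra, a receptor chain for GM-CSF, with 42.3 to 67.2 CPM in KO and 34.7 to 41.1 CPM in WT libraries (log2FC 0.51, adjusted p = 0.137), and Cebpa, with 485 to 637 CPM in KO and 668 to 888 CPM in WT libraries (log2FC -0.40, adjusted p = 0.186). Cebpa encodes a transcription factor of myeloid cells that adipocytes also express. DESeq2 called Csf2ra (adjusted p = 0.0230).

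Cd68 encodes a glycoprotein of macrophage lysosomes and late endosomes and lies on the minus strand of chromosome 11 (69664213 to 69666153). KO libraries held 138, 101, 133 and 139 CPM, and WT libraries held 111, 125, 87.7 and 101 CPM. Of the KO libraries 1, 3 and 4 stood above every WT library, and KO library 2 lay level with WT library 4. The means were 128 ± 18.2 CPM in KO and 106 ± 15.7 CPM in WT fat, and the log2FC of 0.27 (SE 0.136) did not pass (edgeR adjusted p = 0.372). Its interval ran from 0.974-fold to 1.49-fold. Without KO library 2 the log2FC was 0.37 (adjusted p = 0.354), and without both KO libraries 2 and 3, where duct markers were high, it was 0.40 (adjusted p = 0.511).

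Other pan-macrophage and myeloid genes leaned the same way without passing. Of 19 tested 16 had positive log2FC, beside 47.6% of all genes tested, with a median of 0.26; 0 passed over all genes with edgeR, 3 had an unadjusted p under 0.05, and DESeq2 called 0. Adgre1, listed under its older symbol Emr1, encodes the macrophage marker F4/80. It had 86.0, 56.2, 72.1 and 78.2 CPM in KO libraries and 77.7, 73.2, 49.4 and 51.0 CPM in WT libraries (log2FC 0.22, edgeR adjusted p = 0.597). Cd14, a receptor for bacterial lipopolysaccharide, had 29.7 to 37.8 CPM in KO and 19.0 to 32.3 CPM in WT libraries (log2FC 0.46, adjusted p = 0.213). Tyrobp, the signalling adaptor DAP12, had 61.6 to 88.5 CPM in KO and 52.3 to 72.6 CPM in WT libraries (log2FC 0.32, adjusted p = 0.290). The list summed to 1957 to 2885 CPM in KO and 1544 to 2540.1 CPM in WT libraries, and KO library 1 was the highest. Genes of lipid-associated macrophages, which take up lipid from fat cells, had positive log2FC in 7 of 8 cases, with a median of 0.23. None of these 8 passed, and 0 reached an unadjusted p under 0.05 with edgeR; Mmp12, a macrophage elastase, had 76.6 to 169 CPM in KO and 41.3 to 99.7 CPM in WT libraries (log2FC 0.66, adjusted p = 0.331). Itgax, an integrin shared with dendritic cells, had a log2FC of 0.45 (adjusted p = 0.342).

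C1qa, C1qb and C1qc encode the chains of C1q, the recognition part of the first complement component, and lie together on the minus strand of chromosome 4 in a stretch of 18675 bp (136880129 to 136898803, mm10). C1qb is followed by C1qc after 3616 bp and C1qc by C1qa after 2851 bp. RefSeq promoter windows of 300 bases in build GRCm38.p6, shown because these neighbours kept close proportions in all libraries, were at hand for C1qb (chr4:136886151-136886450, minus strand) and C1qc (chr4:136892865-136893164, minus strand). Capitals mark matches on either strand to GAGGAA, the core of a site of the myeloid factor PU.1, or to TGCTGA, part of the site of MAF factors.
C1qb: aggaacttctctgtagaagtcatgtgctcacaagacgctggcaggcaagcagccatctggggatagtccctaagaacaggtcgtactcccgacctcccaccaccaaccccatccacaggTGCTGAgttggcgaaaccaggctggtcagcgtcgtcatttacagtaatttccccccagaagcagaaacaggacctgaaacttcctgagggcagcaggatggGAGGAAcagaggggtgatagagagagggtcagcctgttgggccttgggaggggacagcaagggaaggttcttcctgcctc
C1qc: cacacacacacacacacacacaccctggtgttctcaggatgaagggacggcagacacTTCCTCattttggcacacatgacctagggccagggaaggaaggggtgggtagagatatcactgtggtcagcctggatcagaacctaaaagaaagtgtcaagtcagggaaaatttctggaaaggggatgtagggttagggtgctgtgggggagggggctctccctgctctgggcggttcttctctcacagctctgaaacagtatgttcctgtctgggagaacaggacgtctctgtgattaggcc
In the C1qb window the PU.1 core began at base 221 and the MAF element at base 120, and in the C1qc window the PU.1 core began at base 58 on the other strand, with no MAF element. Of 32851 such windows of the mouse genome 28.3% hold the PU.1 core and 19.5% the MAF element. Of the 10 genes 7 had a window, of which 5 held the PU.1 core and 3 the MAF element.

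The C1q genes varied little between mice, with coefficients of variation of 11.1 to 13.6% in KO and 5.74 to 12.8% in WT fat. C1qa had 211, 159, 219 and 208 CPM in KO libraries 1 to 4, against 208, 202, 181 and 155 CPM in WT libraries 1 to 4. C1qb had 255, 198, 255 and 248 CPM in KO libraries, against 240.1, 224, 203 and 190.3 CPM in WT libraries. C1qc had 212, 171, 221 and 214 CPM in KO libraries, against 199.5, 199, 182 and 179 CPM in WT libraries. For each chain KO library 2 was the lowest KO library, and WT library 4 the lowest WT library. The log2FC were 0.09 for C1qa (SE 0.129, edgeR adjusted p = 0.766), 0.16 for C1qb (SE 0.111, adjusted p = 0.534) and 0.11 for C1qc (SE 0.0971, adjusted p = 0.637). Their intervals ran from 0.872-fold to 1.31-fold, from 0.936-fold to 1.33-fold and from 0.925-fold to 1.25-fold. The proportion of the chains stayed close across mice. Per exonic length, C1qb stood at 2.05 to 2.13 times C1qc in KO and 1.89 to 2.14 times in WT libraries. C1qa stood at 1.73 to 1.84 times C1qc in KO and 1.61 to 1.93 times in WT libraries. The size of these ratios depends on the exonic lengths used, 1040 bp for C1qa, 1088 bp for C1qb and 1931 bp for C1qc. Without that scaling the CPM of the chains, given above, lay much closer together.

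Partners of C1q in the classical pathway, which other cells of fat also make, had negative log2FC in 9 of 10 cases, with a median of -0.13, beside 52.4% of all genes tested. None passed (0 of 10 with edgeR, 2 at an unadjusted p under 0.05, 0 with DESeq2). C4b, a complement component cleaved downstream of C1, had 788 to 1210 CPM in KO and 1147 to 1375 CPM in WT libraries (log2FC -0.43, edgeR adjusted p = 0.218). Calr, calreticulin, which binds C1q on dying cells, had 411 to 449 CPM in KO and 457 to 524 CPM in WT libraries (log2FC -0.19, adjusted p = 0.301).

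Mrc1 and Cd163 encode scavenger receptors of resident and perivascular macrophages. Mrc1, the mannose receptor CD206 on chromosome 2 (14229414 to 14332057, plus strand), had 126, 116, 132 and 142 CPM in KO libraries and 164, 177, 146 and 125 CPM in WT libraries. WT libraries 1, 2 and 3 stood above every KO library, while WT library 4 lay within the KO range. The means of 129 ± 10.7 CPM in KO and 153 ± 22.6 CPM in WT fat gave a log2FC of -0.25 (SE 0.116, edgeR adjusted p = 0.335), with an interval from 0.702-fold to 1.01-fold. The gene of the microRNA Mir511 lies in Mrc1 on the same strand and had 0 reads in this table.

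Cd163, the receptor for haemoglobin bound to haptoglobin on chromosome 6 (124304651 to 124330527, plus strand), had 21.0, 20.9, 34.7 and 29.5 CPM in KO libraries 1 to 4. WT libraries 1 to 4 held 29.3, 50.0, 43.6 and 41.8 CPM. WT libraries 2, 3 and 4 stood above all KO libraries, and WT library 1 lay among the KO libraries. The means were 26.5 ± 6.76 CPM in KO and 41.2 ± 8.65 CPM in WT fat, with a log2FC of -0.63 (SE 0.206). This was the lowest p of the set, unadjusted p = 0.0131 from edgeR's quasi-likelihood test, but the adjusted p of 0.186 did not pass. Its interval ran from 0.467-fold to 0.890-fold before any adjustment for the number of genes. The value was -0.76 without WT library 1 (adjusted p = 0.157) and -0.69 without KO libraries 2 and 3 (adjusted p = 0.470), and the lowest adjusted p of any setting was 0.0747, with DESeq2.

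**Figure D2:**
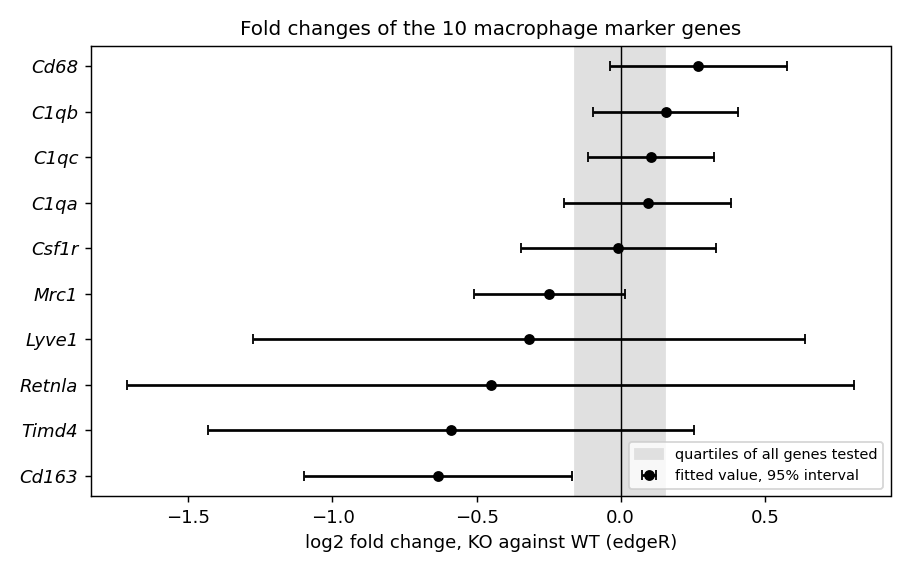
Log2 fold change of each macrophage marker gene, KO against WT (x axis), as fitted by edgeR with its 95% interval; the grey band runs between the quartiles of all genes tested. Cd163 lies lowest at -0.63 and Cd68 highest at 0.27, and the intervals of Lyve1, Retnla and Timd4 are the widest.

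Genes tied to the work of CD163 in haem and iron recycling had positive log2FC in 8 of 10 cases, beside 47.6% of all genes tested, with a median of 0.32. None passed with edgeR (0, with 5 at an unadjusted p under 0.05, beside 16.2% of all genes tested), and DESeq2 called 0. Slc11a1, an iron and manganese transporter of phagosomes, had 38.9 to 57.3 CPM in KO and 32.5 to 44.2 CPM in WT libraries (log2FC 0.40, edgeR adjusted p = 0.205). Blvrb, a biliverdin reductase, had 50.4 to 62.9 CPM in KO and 42.1 to 57.3 CPM in WT libraries (log2FC 0.30, adjusted p = 0.253). Other genes of resident and perivascular macrophages had negative log2FC in 14 of 18 cases, beside 52.4% of all genes tested, with a median of -0.28. Of these 18 genes 0 passed (edgeR, 5 at an unadjusted p under 0.05). Besides Clec10a and Gas6, described next, those 5 were F13a1, Cd209f and Folr2, lower in KO fat with overlap. Their log2FC were -0.57, -0.61 and -0.48 (edgeR adjusted p = 0.185, 0.258 and 0.287). Clec10a, a lectin of IL-4-exposed macrophages, had 29.8, 30.5, 46.9 and 46.0 CPM in KO libraries and 60.8, 56.7, 58.0 and 56.0 CPM in WT libraries, without overlap (log2FC -0.59, adjusted p = 0.138). Gas6, a bridge between dying cells and their receptors that fibroblasts and other cells make too, had 551 to 814 CPM in KO and 362 to 488 CPM in WT libraries, also without overlap (log2FC 0.51, adjusted p = 0.164). DESeq2 called these last genes, Clec10a with an adjusted p of 0.0211 and Gas6 with 0.0199. Blood endothelial markers, which lie beside perivascular macrophages, were lower in KO fat by log2FC in 8 of 8 cases (median -0.28). Of these 0 passed with edgeR, 5 had an unadjusted p under 0.05 and DESeq2 called 5 of 8, where it called 5.47% of all genes, and they summed to 1448 to 1680.0 CPM in KO and 1766 to 2025 CPM in WT libraries. Emcn had a log2FC of -0.42 (edgeR adjusted p = 0.0716) and Pecam1 of -0.39 (adjusted p = 0.0908). Their part in the values of Cd163 and Mrc1 was not tested.

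Lyve1 encodes a receptor for hyaluronan that is carried by perivascular macrophages and also by lymphatic endothelium, and lies on the minus strand of chromosome 7 (110850607 to 110862953). KO libraries held 46.4, 67.0, 177 and 57.5 CPM, and WT libraries held 141, 134, 67.1 and 91.8 CPM. KO library 3 was the highest of all 8 libraries and the other KO libraries were the lowest, with KO library 2 level with WT library 3. The means were 87.1 ± 60.8 CPM in KO and 109 ± 35.2 CPM in WT fat (log2FC -0.32, SE 0.423, edgeR adjusted p = 0.756), and the interval ran from 0.413-fold to 1.56-fold. KO library 3 decided the size of this value: without it the log2FC was -0.92 (adjusted p = 0.237), and without both KO libraries 2 and 3 it was -1.05 (adjusted p = 0.378).

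Markers of lymphatic endothelium varied between the same libraries. All 9 were tested, 0 passed and 0 had an unadjusted p under 0.05 with edgeR (DESeq2 called 0), and their median log2FC was -0.32. Their sum was 312, 398, 700.4 and 313 CPM in KO libraries 1 to 4 and 809, 468, 264 and 574 CPM in WT libraries 1 to 4. KO library 3 was thus the highest KO library for this sum as for Lyve1, and WT library 3 the lowest WT library for both. Prox1, the transcription factor that defines lymphatic endothelium, had 2.08, 1.48, 5.17 and 1.25 CPM in KO libraries and 12.7, 2.47, 0.738 and 6.94 CPM in WT libraries. Mmrn1 had 47.1, 67.1, 167 and 49.1 CPM in KO libraries and 212, 97.9, 42.2 and 153 CPM in WT libraries. Flt4, the receptor for the lymphatic growth factor VEGF-C, had 50.2, 60.7, 127 and 62.3 CPM in KO libraries and 133, 88.4, 48.4 and 106 CPM in WT libraries. WT library 1, where T and B cell genes were high, was the highest of all for Prox1, Mmrn1 and Flt4. The part of lymphatic vessels in the Lyve1 level was not tested.

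**Figure D3:**
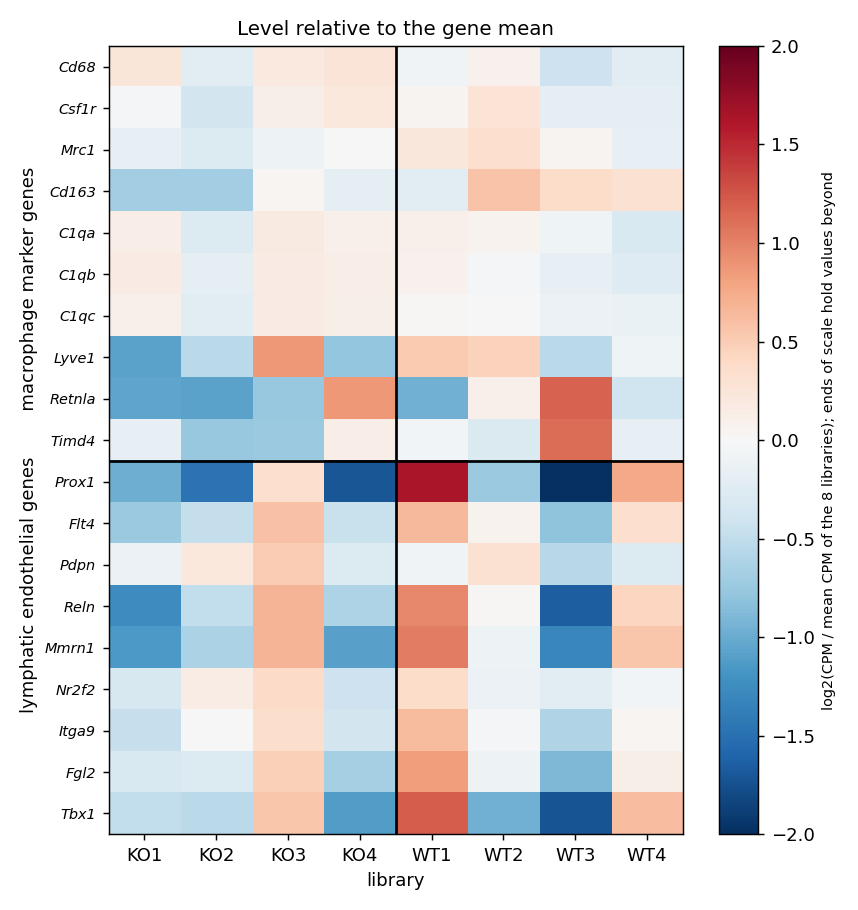
Level of each macrophage marker gene (upper rows) and each lymphatic endothelial gene (lower rows) in the KO and WT libraries (columns), as log2 of CPM over the mean of the 8 libraries. Lyve1 is high in KO library 3 (177 CPM), as Mmrn1 (167 CPM) and Flt4 (127 CPM) are among KO libraries; Retnla and Timd4 are highest in WT library 3 (221 and 5.41 CPM).

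Genes that make, bind or break down hyaluronan, the ligand of LYVE1, did not pass either. Of 8 tested 0 were called with edgeR (1 at an unadjusted p under 0.05) or with DESeq2 (0), and the median log2FC was -0.07. Tmem2, a hyaluronidase of the cell surface, had 17.9 to 21.2 CPM in KO and 22.6 to 25.4 CPM in WT libraries (log2FC -0.29, edgeR adjusted p = 0.186). Hyal1, a lysosomal hyaluronidase, had 47.9 to 75.6 CPM in KO and 41.7 to 62.7 CPM in WT libraries (log2FC 0.31, adjusted p = 0.392).

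Retnla encodes the secreted protein RELM-alpha, which mouse macrophages make when exposed to IL-4 or IL-13, and lies on chromosome 16 (48842552 to 48844461, plus strand). Its RefSeq promoter window (chr16:48842359-48842658, plus strand, GRCm38.p6) is shown because this gene varied most between mice, with matches to the same PU.1 core and MAF element and to the STAT6 motif (TTC, any 4 bases, then GAA) in capitals; STAT6 is the factor through which IL-4 and IL-13 act.
Retnla: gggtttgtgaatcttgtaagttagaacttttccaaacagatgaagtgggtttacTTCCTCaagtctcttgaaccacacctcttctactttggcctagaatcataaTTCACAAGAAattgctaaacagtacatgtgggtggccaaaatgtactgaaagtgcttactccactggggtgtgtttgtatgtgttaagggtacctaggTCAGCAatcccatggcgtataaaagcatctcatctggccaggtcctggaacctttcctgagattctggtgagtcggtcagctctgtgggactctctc
The STAT6 motif began at base 106 of the window, and on the other strand the PU.1 core matched at base 55 and the MAF element at base 204. This motif occurs in 6.95% of the 32851 windows and in 1 of the 7 windows of these macrophage genes, that of Retnla.

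Retnla had 46.7, 46.1, 57.4 and 178 CPM in KO libraries 1 to 4 and 50.1, 105, 221 and 74.0 CPM in WT libraries 1 to 4. In each genotype 1 library stood far above the others, KO library 4 and WT library 3, and the highest was 3.86 times the lowest among KO and 4.42 times among WT libraries. The means of 82.0 ± 64.0 CPM in KO and 113 ± 75.9 CPM in WT fat gave a log2FC of -0.45 (SE 0.558, edgeR adjusted p = 0.738), and the interval from 0.305-fold to 1.75-fold leaves both directions possible. Without KO library 4 the log2FC was -1.17 (adjusted p = 0.248), and without WT library 3 it was 0.11 (adjusted p = 0.938). Of the relatives of Retnla, Retnlb had 0 reads and Retnlg at most 0.999 CPM in any library. Retn, which mouse adipocytes make, had 603 to 824 CPM in KO and 812 to 1176 CPM in WT libraries (log2FC -0.50, adjusted p = 0.165; DESeq2 called it, adjusted p = 0.0266).

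The rest of the IL-4 and IL-13 pathway gave no call with edgeR: 0 of 14 tested genes passed, 1 had an unadjusted p under 0.05 (Clec10a, described above) and the median log2FC was -0.02. DESeq2 called 1. The cytokines Il4 and Il13 did not pass the filter, with at most 0.204 CPM and 0.196 CPM in any library. Arg1, arginase 1, had 1.36 to 3.54 CPM in KO and 1.31 to 1.81 CPM in WT libraries (log2FC 0.67, edgeR adjusted p = 0.359). Ccl24 (log2FC -0.70, edgeR adjusted p = 0.366) and Chi3l3 (log2FC -1.02, adjusted p = 0.370) went the other way at a similar p. Of the 14 tested genes 7 had a positive and 7 a negative log2FC.

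Timd4 encodes TIM-4, a receptor for phosphatidylserine on dying cells that marks long-lived resident macrophages, and lies on chromosome 11 (46810800 to 46844332, plus strand). It was the least abundant gene of the set, with 291 reads in all. KO libraries 1 to 4 had 29, 20, 22 and 57 reads (1.48 to 2.74 CPM), and WT libraries 1 to 4 had 28, 35, 66 and 34 reads (2.41, 2.06, 5.41 and 2.23 CPM). WT library 3 stood above all others, and the remaining 7 libraries lay between 1.48 and 2.74 CPM. The log2FC of -0.59 (SE 0.373, edgeR adjusted p = 0.481; interval from 0.370-fold to 1.19-fold) rested on that library and was -0.15 without it (adjusted p = 0.834). WT library 3 and KO library 4 were the highest of their genotypes for both Timd4 and Retnla.

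Other genes for the clearance of dying cells had negative log2FC in 14 of 18 tested cases, with a median of -0.15, and 0 passed (edgeR, 3 at an unadjusted p under 0.05; DESeq2 called 1, Gas6). Dock1, which acts in engulfment, had 61.1 to 72.3 CPM in KO and 68.8 to 81.5 CPM in WT libraries (log2FC -0.22, edgeR adjusted p = 0.252). Of 14 tested relatives of the 10 genes 0 passed with edgeR (1 at an unadjusted p under 0.05; DESeq2 called 1, Retn), and the median log2FC was -0.08. Pla2r1, a relative of the mannose receptor, had 14.9 to 22.1 CPM in KO and 17.6 to 26.6 CPM in WT libraries (log2FC -0.31, adjusted p = 0.388).

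To compare the markers with each other within a library, which does not depend on library scaling, reads of each gene were set against those of Csf1r. Per 100 Csf1r reads there were 59.8, 55.1, 51.9 and 50.9 Cd68 reads in KO libraries, against 45.3, 43.6, 41.8 and 48.3 in WT libraries. With Csf1r as denominator this was the only ratio of 9 whose genotypes did not overlap. The log2 ratio differed by 0.28 (exact permutation p = 0.0286, two-sided, the smallest that 4 against 4 allows) and did not pass after adjustment over the 9 ratios (0.257). A single ratio cannot pass this adjustment, since it gives 0.257 even at the smallest p. The choice of denominator decided the size for Cd68: set against Adgre1 reads, the difference was 0.0375 (exact permutation p = 0.743). Cd163 stood at 9.11 to 13.5 reads per 100 Csf1r reads in KO libraries and 12.0 to 20.8 in WT libraries. Its log2 ratio differed by -0.63 (exact permutation p = 0.0571, adjusted 0.257), higher in 3 of the 4 WT libraries than in any KO library. The size for Cd163 also depended on the denominator. It was -0.91 against Cd68 reads (exact permutation p = 0.0286, adjusted 0.0857) and -0.87 against Adgre1 reads (exact permutation p = 0.0571, adjusted 0.286). For Mrc1 the ratio was 54.7, 63.7, 51.4 and 51.9 reads per 100 in KO libraries and 67.2, 62.0, 69.8 and 60.2 in WT libraries (log2 difference -0.23, exact permutation p = 0.0857, adjusted 0.257). It differed by -0.51 against Cd68 reads and by -0.47 against Adgre1 reads (exact permutation p = 0.0286 for each, adjusted 0.0857 and 0.286). The ratios of C1qa, C1qb and C1qc to Csf1r differed by 0.10, 0.17 and 0.11, and their direction turned when Cd68 or Adgre1 took the place of Csf1r. Lyve1, Retnla and Timd4 differed by -0.46, -0.48 and -0.52, less than the SD of Lyve1 and Retnla in KO fat (0.833 and 0.775) and of Retnla and Timd4 in WT fat (0.989 and 0.786). Single libraries decided these sizes: without WT library 3 the difference was -0.0253 for Retnla and -0.14 for Timd4, and without KO library 3 it was -0.82 for Lyve1. With each library left out in turn, they ran from -0.82 to -0.23 for Lyve1, from -0.86 to -0.0253 for Retnla and from -0.75 to -0.14 for Timd4.

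**Figure D4:**
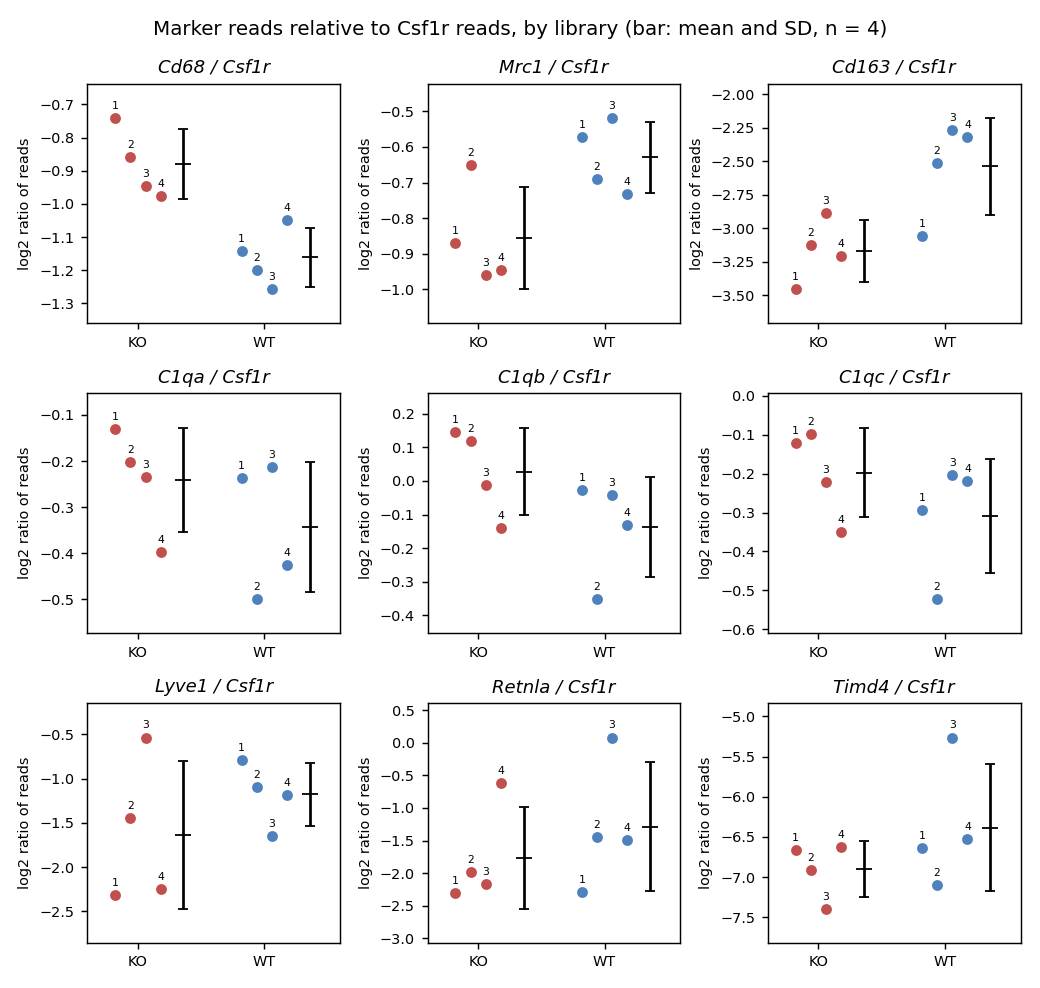
Log2 ratio of the reads of 9 macrophage marker genes to Csf1r reads of the same library (y axes differ between panels) in KO and WT libraries; points are single libraries with their replicate number, bars mean and SD of 4. KO points of Cd68 lie above all WT points (difference 0.28, but 0.0375 with Adgre1 in place of Csf1r), and those of Cd163 lie lower on average (difference -0.63) with WT library 1 among them.

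Markers of other blood-derived cells were measured beside these genes. Monocyte genes summed to 563 to 811 CPM in KO and 770.2 to 994 CPM in WT libraries, with 0 of 10 called by edgeR (1 at an unadjusted p under 0.05) or by DESeq2 (0). Ccr2, which brings monocytes into tissue, had 41.3 to 74.0 CPM in KO and 28.2 to 69.4 CPM in WT libraries (log2FC 0.42, edgeR adjusted p = 0.497), and Ly6c2 had 3.75 to 13.5 CPM in KO and 4.58 to 8.77 CPM in WT libraries (log2FC 0.39, adjusted p = 0.653). The levels of Ccr2 and Ly6c2 are a small part of the monocyte sums, which rest mostly on other genes of the list. Fn1, a matrix gene that monocytes share with other cells, had a log2FC of -0.51 (adjusted p = 0.308), and Chi3l3 one of -1.02 (adjusted p = 0.370). Dendritic cell genes summed to 92.2 to 146 CPM in KO and 71.0 to 141 CPM in WT libraries, and 0 of 7 had an unadjusted p under 0.05 with edgeR. Of 4 tested neutrophil genes 1 rose, Camp, the gene of cathelicidin, with 1.02 to 6.20 CPM in KO and at most 0.0860 CPM in WT libraries (edgeR adjusted p = 0.0378). This call was lost in 7 of 17 alternatives: with the replicate block, without KO library 2, without any of the 4 WT libraries, and without both KO libraries 2 and 3. Ly6g, which defines neutrophils, had no read in any library.

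Genes of cells outside the blood lineages, and of lymphocytes, gave no call with edgeR on all 8 libraries. Of 9 adipocyte genes 0 passed (3 at an unadjusted p under 0.05; DESeq2 called 2), with a median log2FC of -0.27; the log2FC of Slc2a4, which takes up glucose under insulin, was -0.84 (adjusted p = 0.140). Of 10 tested duct genes 0 passed, although all 10 had an unadjusted p under 0.05 and DESeq2 called 9; their median log2FC was 3.56. This count rested on KO library 1, since edgeR called 11 of the 16 listed duct genes without it (Epcam, Cdh1 and Foxj1 among them). It called 1 without KO library 4, Krt18, and 1 with the replicate block, Foxj1. Of 8 mesothelial genes 0 passed (1 at an unadjusted p under 0.05; DESeq2 called 0). Of 7 T and B cell genes 0 passed, 0 had an unadjusted p under 0.05 and DESeq2 called 0, with a median log2FC of -0.40.

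The genes whose levels over the 8 libraries were most like those of the markers were ranked by Pearson's r of log2 CPM among 10970 genes; since they are the highest of so many, r is given as a description. For Csf1r they were Hlx (0.97), Pld1 (0.94) and E2f7 (0.94). For Lyve1 they were Fam70a (0.97), Synpo (0.96) and Zbtb39 (0.96), and for Retnla Hist1h2be (0.97), P2ry2 (0.97) and Taf9 (0.96). For Timd4 they were Slc6a13 (0.98), Hn1 (0.97) and Pxmp2 (0.94). Slc6a13, a transporter of GABA and taurine, had 107, 72.6, 70.5 and 108 CPM in KO libraries and 99.2, 86.5, 175 and 99.6 CPM in WT libraries, highest in WT library 3 as Timd4 was.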

How the data were processed

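RNA of 8 libraries was sequenced; per the labels' protocols, polyadenylated RNA, stranded TruSeq libraries and single reads of 50 cycles were used. Novoalign 2.8.1, Picard and build mm10 are listed per the submitters' processing notes, which leave the counting program and annotation unstated. The authors deposited 1 table with raw counts and FPKM values per gene and library, per the file headers. The FPKM values were used for levels between genes. Starts in the table count from 0 (start plus 1 equals that of GENCODE for 24160 of 32608 shared genes) and were raised by 1.

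Genes were filtered by filterByExpr (minimum count 10), scaled by TMM and tested with the quasi-likelihood F test of edgeR 4.0.16 (R 4.3.3; not paired, no covariate), with Benjamini-Hochberg adjustment over all 14800 genes and calls at 0.05. The script was tested on simulated data. CPM values are TMM-scaled counts. Ratios to Csf1r used counts plus 0.5 and two-sided exact permutation tests over 70 assignments. Counting error limits Timd4 most, with 20 to 66 reads per library. The labels name 4 mice per genotype and no batch, and no pair of libraries agreed within sampling noise (lowest chi-square per gene 19.5).

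The 10 genes and 19 lists of other genes (204 of 206 symbols found) were chosen with earlier results of these data known. Named from each list were all called genes, otherwise the 2 with the lowest p, and some ligands and defining markers; for 4 of the markers, the 3 genes with the highest r among genes of at least 5 CPM. Genes named outside this rule, such as Pbsn, Elf3, Il4, Il13, Retnlb, F13a1, Cd209f, Folr2 and Ccl24, were chosen after their values were seen. Alternatives were RLE, upper quartile and total count scaling, no filter or 1 CPM in at least 4 libraries, DESeq2 1.42.0, limma-voom (limma 3.58.1), the replicate number as a block, each library left out in turn and KO libraries 2 and 3 left out together; for ratios, Cd68 or Adgre1 as denominator and 1 added read. Protein sequences were not used here.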

Additional observations from a re-analysis of the deposited data

Results flagged for a closer look

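In groups of 4, a library was singled out when its gap to the nearest other library took up most of the group's range (Dixon's 95% critical value). For a single group chance gives this about 1 time in 20, and 6 of 38 groups examined met it. The groups are not independent, so this count cannot be set against that rate. All 6 were groups of CPM values, not of log2 ratios. KO library 2 gave those of Cd68, C1qb and C1qc, genes whose levels went together over the 8 libraries (r 0.86 to 0.95). KO library 2 stood below the other KO libraries for Cd68 (101 CPM), C1qb (198 CPM) and C1qc (171 CPM). Duct markers summed to 581 CPM in that library. They summed to 589 CPM in KO library 3, where Cd68 had 133, C1qb 255 and C1qc 221 CPM. The part of duct tissue in these levels was not tested. KO library 3 stood above the other KO libraries for Lyve1 (177 CPM), with lymphatic markers at 700.4 CPM. KO library 4 stood above the other KO libraries for Retnla (178 CPM). WT library 3 stood above the other WT libraries for Timd4 (5.41 CPM, 66 reads).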

How the results depend on the processing

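Over the 17 alternatives to the edgeR fit the number of the 10 macrophage genes called stayed at 0. Over the 13 alternatives for the ratios to Csf1r the number past the threshold also stayed at 0, but this count says little. The smallest possible permutation p was 0.125 with the replicate block and 0.0667 without both KO libraries 2 and 3, so nothing could pass there. On all 8 libraries a single ratio at the smallest p of 0.0286 has an adjusted p of 0.257 and cannot pass. The number of all genes called was 60 and moved to 810 (5.47%) with DESeq2, to 14 with the replicate block, to 3 without both KO libraries 2 and 3, to 290 without KO library 1, to 44 without KO library 4, and to between 0 and 23 without each of the other libraries (0 without KO library 2 with edgeR, where 1573 genes had an unadjusted p under 0.05). The labels do not say whether the replicate numbers pair the mice. Between KO and WT libraries of the same number, the r of deviations from the genotype means ran from -0.25 to 0.18, which cannot settle this. The block changed no call of the 10 genes. The sign of Csf1r's log2FC (-0.01) turned: it was 5.77e-04 with RLE scaling, 0.00698 with upper quartile scaling, 0.00502 with total count scaling, 5.71e-04 with DESeq2, 0.10 without both KO libraries 2 and 3, and -0.0851 to 0.10 with single libraries left out. That of Retnla (-0.45) was 0.01 without both KO libraries 2 and 3 and -1.17 to 0.11 with single libraries left out. With Cd68 as denominator the differences of C1qa, C1qb and C1qc were -0.18, -0.12 and -0.17, and with Adgre1 they were -0.14, -0.0779 and -0.13; the cause was not tested. The difference of Cd68 (0.28) was 0.0375 with Adgre1, and that of Mrc1 (-0.23) was -0.51 with Cd68 and -0.47 with Adgre1. That of Cd163 (-0.63) was -0.91 with Cd68 and -0.87 with Adgre1. Those of Lyve1, Retnla and Timd4 were -0.74, -0.76 and -0.80 with Cd68, and -0.70, -0.72 and -0.76 with Adgre1. The other 8 genes kept their direction in all 17 alternatives. No scaling moved the median log2FC of all genes by over 0.1. With 4 mice per genotype the intervals of Lyve1, Retnla and Timd4 span over 3-fold.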
